A study of Mus musculus with 2 samples.

Results

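Necroptosis and pyroptosis are lytic forms of cell death, and 10 mouse genes that carry out or control them were examined: Mlkl, Ripk1, Ripk3, Casp8, Fadd and Zbp1 of the necroptosis pathway, and Casp1, Casp4, Gsdmd and Il18 of the pyroptosis pathway. They were chosen by name, and 9 of the 10 had a row among the 21145 genes listed. Ripk3, which encodes the kinase that activates MLKL, had no row and is not analysed here. No listed gene was at 0 in both libraries, so a missing row may mean that a gene was detected in neither. Whether that holds for Ripk3 was not tested. The cells were AML12, a nontumorigenic mouse hepatocyte line of the strain background CD1/MT42, at passages 14 to 16. One line was infected with a lentivirus for H19, a long noncoding RNA (Lv-H19), and the other with a control virus (Lv-NC), and both were selected and kept in puromycin. Which promoter drives the transgene, and whether a line is a clone or a pool, is not given in the sources used here. Polyadenylated RNA was sequenced from 1 library per group, called here the control library and the H19 library, so no value has a replicate error, no test was possible and every difference describes these 2 libraries.

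In necroptosis, receptors such as the TNF receptor recruit the kinase RIPK1 with the adaptor FADD and the protease caspase-8. When caspase-8 is not active, RIPK1, or the nucleic acid sensor ZBP1, engages RIPK3, which phosphorylates MLKL, and MLKL then breaks the plasma membrane. In pyroptosis, inflammasomes activate caspase-1, or cytosolic lipopolysaccharide activates caspase-4 (also called caspase-11 in mice), and these proteases cut gasdermin D into a pore-forming fragment. Caspase-1 also cuts the precursor of interleukin-18, which leaves the cell through such pores.

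The promoters of 4 of these genes are shown because Casp1 and Casp4 are neighbours whose values differed by unlike amounts between the libraries, Mlkl had the highest positive difference, and Ripk1 held 2 of the motifs searched. The sequences are from RefSeq on GRCm38.p6, from 250 bases before to 50 bases after an annotated start, 5′ to 3′ on the strand of the gene. The windows are chr9:5298267-5298566 (plus strand) for Casp1, chr9:5308599-5308898 (plus strand) for Casp4, chr8:111338156-111338455 (minus strand) for Mlkl and chr13:34002624-34002923 (plus strand) for Ripk1. Capitals mark matches to any of 3 motifs on either strand: GAAA, any base at NN and GAAA again, the core of the interferon-stimulated response element, TTCNNNGAA, the site of activated STAT dimers (GAS), and GGG, NN and TTTCC in a row, a form of the NF-kappaB site.
Casp1: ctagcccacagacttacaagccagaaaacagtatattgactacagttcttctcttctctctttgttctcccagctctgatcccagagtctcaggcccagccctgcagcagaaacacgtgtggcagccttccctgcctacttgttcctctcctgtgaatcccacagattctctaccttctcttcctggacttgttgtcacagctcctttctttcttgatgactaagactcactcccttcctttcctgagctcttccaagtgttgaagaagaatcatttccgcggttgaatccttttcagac
Casp4: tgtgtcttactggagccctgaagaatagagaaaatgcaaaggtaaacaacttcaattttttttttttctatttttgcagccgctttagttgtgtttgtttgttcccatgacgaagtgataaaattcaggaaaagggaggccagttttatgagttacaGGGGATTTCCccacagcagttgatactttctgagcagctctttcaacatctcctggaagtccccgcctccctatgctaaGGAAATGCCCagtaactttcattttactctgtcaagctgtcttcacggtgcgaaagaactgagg
Mlkl: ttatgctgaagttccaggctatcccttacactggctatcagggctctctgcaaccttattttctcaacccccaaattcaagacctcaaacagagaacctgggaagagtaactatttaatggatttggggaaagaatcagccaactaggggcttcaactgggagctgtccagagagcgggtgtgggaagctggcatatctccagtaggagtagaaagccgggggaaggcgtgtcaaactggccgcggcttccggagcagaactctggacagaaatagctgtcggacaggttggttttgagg
Ripk1: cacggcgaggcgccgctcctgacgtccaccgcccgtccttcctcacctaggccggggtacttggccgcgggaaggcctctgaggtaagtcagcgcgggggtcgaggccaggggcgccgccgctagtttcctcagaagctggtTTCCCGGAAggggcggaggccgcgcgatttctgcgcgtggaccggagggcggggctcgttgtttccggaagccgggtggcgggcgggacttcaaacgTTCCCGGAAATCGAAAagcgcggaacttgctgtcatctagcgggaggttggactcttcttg

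Windows were found for 8 of the 10 genes, Gsdmd and Zbp1 being without one, and Casp4 and Ripk1 each had 2 windows. The Casp4 window held a match to the NF-kappaB letters on each strand. At least 1 match on either strand was found in 1.63% of all 32851 promoter windows. The Ripk1 window held a pair of GAS matches and 1 match to the interferon element. At least 1 GAS match was found in 8.3% of all windows and at least 1 match to the interferon element in 3.44%. The share of windows with a pair of matches was not counted. The GAS match nearer the start overlaps the interferon element. The 2 Casp4 windows overlap and hold the same matches, while the other Ripk1 window, chr13:34002113-34002412, held none. That other window is the one at the first base of the gene, 34002363, and the Ripk1 window shown is at a start inside the gene. The windows of Casp1, Mlkl, Casp8, Fadd, Il18 and Ripk3 held none of these letters. The Casp8 window, chr1:58802252-58802551, is also at a start inside the gene. The bases around the first base of Casp8, 58795374, were therefore not searched. A match is a description of the sequence, and no match says only that these letters are not in the window.

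The library labelled as overexpressing H19 held H19 at 4.72 FPKM (fragments per kilobase of transcript, scaled by the authors to the mapped fragments), and the control library listed it at 0. The control library had 19595 genes above 0, and 19063 were above 0 in the H19 library. No source used here gives read totals. The low values of long genes with 1 transcript were spaced in a way that would correspond to about 24700000 fragments for the control library and 21700000 for the H19 library if the step is 1 fragment, and with other smoothing these ranged from 23500000 to 24700000 and from 21700000 to 22500000. The label of hepatocyte was borne out in part. Of 10 hepatocyte markers 7 reached a mean of 1 FPKM, with the keratins Krt8 (909 and 658 FPKM, control first) and Krt18, the lipoprotein gene Apob and the transcription factor Hnf4a (74.4 and 44.4 FPKM) well above it, but albumin, Alb, was at 0.99 and 0.178 FPKM, Ttr was at 0.785 and 0.290 FPKM and Apoa1 was under 0.2 FPKM in both libraries.

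Differences are those of log2(FPKM + 1), with the control value subtracted from the H19 value; this scale understates differences of low genes. A gene with a mean of at least 1 FPKM over both libraries is called measured, and 11674 genes were. Of the 9 genes with a row 7 were measured, and Casp1, just under the limit with a mean of 0.969 FPKM, and Zbp1 were not; Il18, with a mean of 1.43 FPKM, lay just above it.

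**Figure D1:**
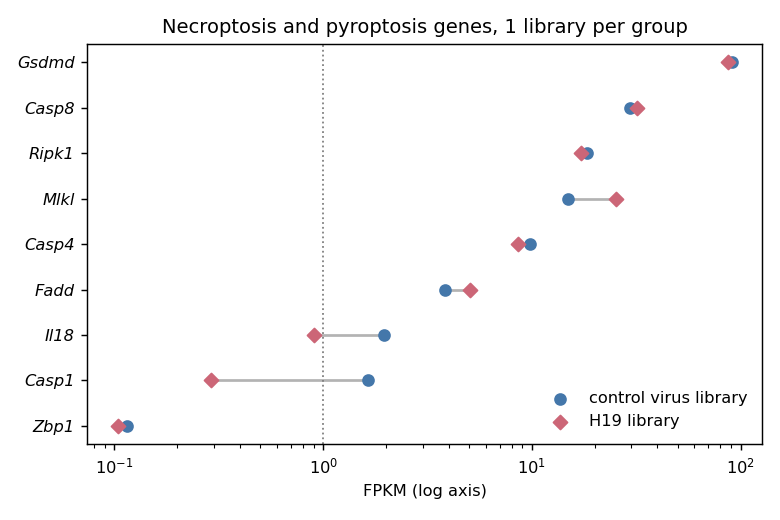
FPKM on a log axis of the 9 genes with a row, ordered by their control value, circles for the control library and diamonds for the H19 library; each point is 1 library and there are no error bars. The dotted line marks 1 FPKM; Mlkl lies to the right in the H19 library, Il18 and Casp1 lie to the left, and the other 6 pairs of points lie close together.

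By level, the genes ranged from abundant to barely detected. Gsdmd was the most abundant in both libraries, higher than 96.4% of listed genes in the control library, and Zbp1 was the least abundant, higher than 26.4%. The order in the control library was Gsdmd, Casp8, Ripk1, Mlkl, Casp4, Fadd, Il18, Casp1 and Zbp1. In the H19 library the only change of order was that Mlkl stood above Ripk1: Mlkl FPKM was 0.816 of Ripk1 FPKM in the control library and 1.47 times it in the H19 library. With 1 library per group, which neighbours in this order differ beyond replicate spread cannot be said.

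Among the necroptosis genes, Mlkl was higher in the H19 library and the upstream kinase and protease genes were nearly level. Mlkl (ENSMUSG00000012519), the pseudokinase that executes necroptosis, lies on the minus strand of chromosome 8, 111311797 to 111338177 on GRCm38. It was at 14.96 FPKM in the control library and 25.3 FPKM in the H19 library, a log2 difference of 0.72, or 1.69-fold on the FPKM themselves. That was short of 2-fold, and 4.66% of the measured genes were at least as far higher. Ripk1 (ENSMUSG00000021408, chromosome 13, 34002363 to 34037147, plus strand), the kinase that decides between survival and death signals at the TNF receptor, was at 18.3 FPKM and 17.2 FPKM (log2 difference -0.09). It shares 511 of its 8344 exonic bases with a processed pseudogene, Gm17084, on the same strand and 241 with Serpinb6a on the opposite strand, an abundant gene at 323 and 401 FPKM. Whether strand was used is not given in the sources used here, so the Ripk1 values are uncertain to that extent.

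Casp8 (ENSMUSG00000026029, chromosome 1, 58795374 to 58847503, plus strand), the protease that starts extrinsic apoptosis and cleaves RIPK1, was at 29.5 FPKM and 32.0 FPKM (log2 difference 0.11). Fadd (ENSMUSG00000031077, chromosome 7, 144577318 to 144582463, minus strand), the death domain adaptor that brings caspase-8 to the receptor complex, was at 3.84 FPKM and 5.06 FPKM (0.32). Fadd overlaps an antisense gene, Faddos, listed at 0.113 and 0.0750 FPKM, over 239 exonic bases. Both genes were within 1.5-fold between the libraries. Cflar, which encodes the caspase-8 inhibitor cFLIP, was at 23.9 FPKM and 19.03 FPKM, so the ratio of Casp8 to Cflar FPKM was 1.23 for the control library and 1.68 for the H19 library. Zbp1 (ENSMUSG00000027514, chromosome 2, 173206612 to 173218923, minus strand), a sensor of Z-form nucleic acids and an interferon-induced gene, was at 0.115 FPKM and 0.104 FPKM. At the depth estimated above these would be about 10 and 8 fragments over its exons, so a small difference could not be seen at this depth.

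Among the pyroptosis genes, the membrane pore and the lipopolysaccharide-sensing caspase were nearly level, while Casp1 and Il18, a protease and a substrate of it, were lower in the H19 library. Gsdmd (ENSMUSG00000022575, chromosome 15, 75862327 to 75867408, plus strand), the pore-forming protein of pyroptosis, was at 90.8 FPKM in the control library and 87.3 FPKM in the H19 library (log2 difference -0.06). Casp4 (ENSMUSG00000033538, chromosome 9, 5308828 to 5336783, plus strand) was at 9.83 FPKM and 8.55 FPKM (-0.18). Both were within 1.5-fold.

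Casp1 (ENSMUSG00000025888, chromosome 9, 5298517 to 5307265, plus strand), the inflammasome protease, was at 1.65 FPKM in the control library and 0.291 FPKM in the H19 library. The log2 difference was -1.04, and on the FPKM themselves the H19 value was 5.66-fold lower. Casp1 was left out of the measured genes because its mean lay under 1 FPKM. With a limit of 1 FPKM in either library, a rule added after the data were seen, 8 of the 9 genes counted. Casp1 was the 1 at least 2-fold lower, where 1.69% of the genes so counted were. Casp1 passed this limit only through its control value, the higher of the 2, so that count lends no weight to its difference. The estimated depth would put about 61 fragments on its annotated exons for the control library and 9 for the H19 library. The authors' deposited table of differences lists Casp1 as lower with a log2 ratio of -2.50, a p-value of 0.000108 and a q-value of 0.00313. It was the only one of the 9 genes in the authors' deposited table, which holds 2.65% of all listed genes, 1.54% as lower. That q compares 2 libraries by a test not given in the sources used here and does not carry the spread between cultures.

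Casp1 and Casp4 stand side by side on the same strand, 1562 bases apart with no shared exonic bases, and did not differ alike. Casp1 FPKM was 0.167 of Casp4 FPKM in the control library and 0.0341 of it in the H19 library. Casp12, another inflammatory caspase gene on the other side of Casp4, was at 0.208 FPKM in the control library but listed at 0 for the H19 line.

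Il18 (ENSMUSG00000039217, chromosome 9, 50554827 to 50581840, plus strand), the cytokine that caspase-1 matures, was at 1.95 FPKM and 0.905 FPKM. Its log2 difference was -0.63, short of 2-fold with a pseudocount of 1, while the FPKM themselves were 2.16-fold lower there. At a pseudocount of 0.1 the difference was -1.03, past 2-fold. The estimated depth gives about 50 and 20 fragments on its annotated exons. The locus deposited for Il18 starts at 50575273, which is 20446 bases inside the GRCm38 annotation, so the deposited locus covers less of the gene than that annotation.

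**Figure D2:**
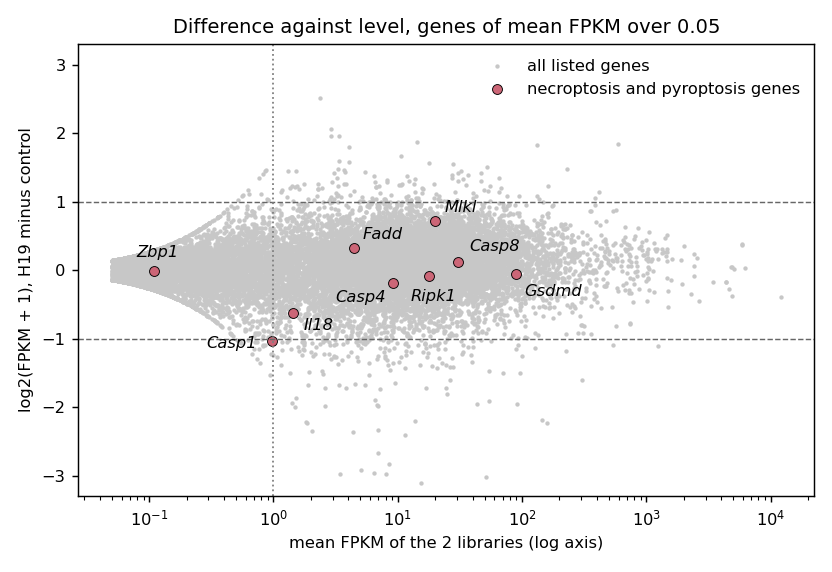
Difference in log2(FPKM + 1), H19 library minus control (vertical), against the mean FPKM of the 2 libraries on a log axis (horizontal), for listed genes of mean FPKM over 0.05 (grey) and the 9 genes with a row (red, named); each point is 1 gene. The dashed lines mark 2-fold and the dotted line a mean of 1 FPKM: Casp1 lies on the lower 2-fold line just left of the dotted line, and the other 8 lie within 2-fold.

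Counted together, 0 of the 7 measured genes reached 2-fold higher and 0 reached 2-fold lower, where 1.14% and 1.57% of all measured genes did. At 1.5-fold, 1 was higher (Mlkl) and 1 lower (Il18), against 8.99% and 6.21% of all measured genes and 15.2% in either direction. Il18 passed the limit on the mean only through its control value. Its place in that count therefore lends no weight to its difference. Among measured genes with a mean FPKM of 1 to 5, where Il18 lies, 17.8% were past 1.5-fold in either direction, and among those of 20 to 100, where Mlkl lies, 14.2% were. With so few members, shares of this size are not a result about the group. The median log2 difference of the 7 was -0.06 and that of all measured genes 0.08. The mean of the 7 was 0.03, with the opposite sign, so the group had no common direction: 3 of the 7 were above 0 and 4 below, where 41.1% of all measured genes were below.

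**Figure D3:**
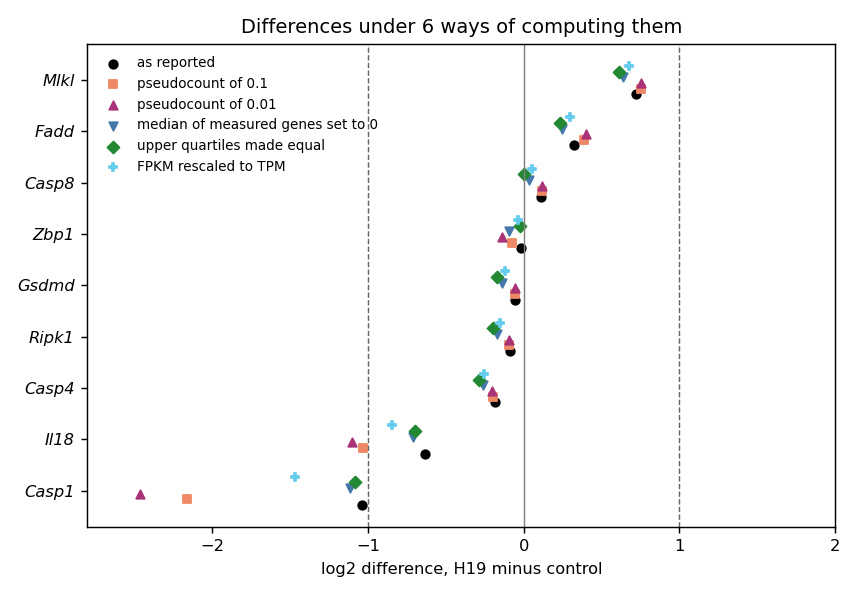
Log2 difference, H19 library minus control, of the 9 genes with a row under 6 ways of computing it, as reported (black circles), with smaller pseudocounts and with other scalings; each symbol is 1 value without replicate error, and the dashed lines mark 2-fold. Symbols of Mlkl stay between 0.61 and 0.76, those of Il18 spread from -0.63 to -1.10 and those of Casp1 from -1.04 to -2.46.

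The genes whose pair of values was nearest to that of Mlkl, by distance in log2(FPKM + 1) over the 2 libraries, were Nr2c2ap at 14.9 and 25.6 FPKM, Med20 at 15.2 and 25.0 FPKM and Traf2 at 14.9 and 25.8 FPKM. A further count showed 25 measured protein-coding genes within a distance of 0.1 of Mlkl. Nearest to Il18 were Hap1 at 1.92 and 0.935 FPKM, Hacl1 at 1.90 and 0.888 FPKM and Igsf3 at 1.94 and 0.962 FPKM. With 2 libraries, such likeness is easily reached.

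Other genes of the pathways were taken from lists written with earlier results of these data known. Upstream of RIPK1 and RIPK3, 7 of 10 death receptor, Toll-like receptor and adaptor genes were measured, 2 higher and 5 lower, 0 of them past 2-fold in either direction, with a median of -0.30. The largest differences were those of Tlr4, the lipopolysaccharide receptor, at 3.98 and 2.39 FPKM, Tlr3, the double-stranded RNA receptor, at 3.60 and 2.18 FPKM, and Fas, the death receptor, at 9.89 and 7.12 FPKM. The TNF receptor gene Tnfrsf1a was at 45.9 and 37.0 FPKM, and Tnf and Fasl had no row.

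All 19 genes of the ubiquitin and kinase checkpoint that holds RIPK1 in its survival form were measured, with a median of 0.01, 10 higher and 9 lower and 0 past 2-fold. Traf2, a ubiquitin ligase adaptor of the TNF receptor complex, was at 14.9 and 25.8 FPKM (log2 difference 0.75) and Chuk, the kinase IKK-alpha, at 62.4 and 96.4 FPKM (0.62). Birc3, the ubiquitin ligase cIAP2, was lower, at 11.6 and 8.21 FPKM (-0.45). Of 7 other genes that act on or beside these kinases, none was past 2-fold. Pgam5, a mitochondrial phosphatase, was at 10.1 and 14.4 FPKM, Ripk4, a related kinase of epithelia, at 12.3 and 8.68 FPKM and Ppm1b, a phosphatase of RIPK3, at 27.3 and 21.8 FPKM. The median of these 7 was 0.09.

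Of 16 inflammasome sensors and adaptors 7 were measured, 1 higher and 6 lower, where 41.1% of all measured genes were below 0. None was past 2-fold. The median was -0.28, but 0.0390 over those with a mean of at least 5 FPKM. Pycard, the adaptor ASC that links most sensors to caspase-1, was listed at 0 for the control and reached only 0.0109 FPKM in the H19 library, and Nlrp3 was at 0.00929 FPKM in the control library but listed at 0 for the H19 line. The sensor Nlrc4 was at 4.92 and 3.26 FPKM, and its partners that sense bacterial proteins, Naip2, Naip5 and Naip6, were also measured, Naip2 at 10.7 and 8.60 FPKM; the Naip genes are close copies, so reads can be divided between them. Txnip, a thioredoxin inhibitor reported to bind NLRP3, was at 4.61 and 2.21 FPKM (-0.81) and is listed as lower in the authors' deposited table with a log2 ratio of -1.06 and a q-value of 0.00630, while Nek7, a kinase that NLRP3 needs, was at 42.0 and 54.1 FPKM (0.36). Nlrp10, below the measured limit like Casp1, was at 0.945 and 0.113 FPKM, and the authors' deposited table also lists it as lower, with a q-value of 7.82e-05.

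Of 14 names of other gasdermins, caspases and the rupture protein NINJ1, 2 were measured and 0 were past 2-fold. Dfna5, the older name of gasdermin E, another pore-forming protein, was at 4.64 and 7.70 FPKM (log2 difference 0.63), so its FPKM was 0.0511 of that of Gsdmd for the control library and 0.0883 for the H19 library. Ninj1 was at 34.2 and 24.6 FPKM (-0.46). Of 12 interleukin-1 family genes 5 were measured, 3 higher and 2 lower, with 0 past 2-fold and a median of 0.42. The median was 0.0683 over those with a mean of at least 5 FPKM. The receptor gene Il1r1 was at 2.20 and 3.95 FPKM, the receptor antagonist gene Il1rn at 41.2 and 61.1 FPKM, and Il18bp, the soluble inhibitor of interleukin-18, at 1.08 and 1.79 FPKM, while Il18 itself was lower. The 2 lower genes of the list were Il33 at 34.7 and 25.7 FPKM (-0.42) and Il18rap at 3.39 and 2.49 FPKM (-0.33). The 10 measured genes of the ESCRT-III membrane repair machinery, which can reseal membranes cut by MLKL or gasdermin D, had a median of 0.02, 5 higher and 5 lower. The largest in size were Chmp4c at 17.6 and 13.9 FPKM, Pdcd6ip at 53.0 and 65.3 FPKM and Vps4a at 12.8 and 14.9 FPKM, all within 1.5-fold.

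Interferon regulators and guanylate-binding proteins, which are known to control or assist Casp4, Gsdmd and Zbp1, were for the most part lower in the H19 library. Among 20 listed names 13 were measured, 10 of them lower, where 41.1% of all measured genes were below 0, and 3 at least 2-fold lower, where 1.57% were. The median was -0.71, but -0.24 over the members with a mean of at least 5 FPKM and -0.36 with no filter on low values. Irf7 was at 3.95 and 1.12 FPKM (-1.22), Gbp2, which helps expose cytosolic bacteria, at 4.29 and 1.47 FPKM (-1.10), and Tmem173, the DNA-signalling adaptor STING, at 2.77 and 0.756 FPKM (-1.10). The authors' deposited table lists these 3 and Gbp3, at 1.62 and 0.465 FPKM, as lower. Tmem173 and Gbp3 passed the limit on the mean only through their control values. The list was also written with earlier results of these data known, so its counts lend no weight to a difference of the group. Casp4 and Gsdmd were within 1.5-fold between the same libraries.

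**Figure D4:**
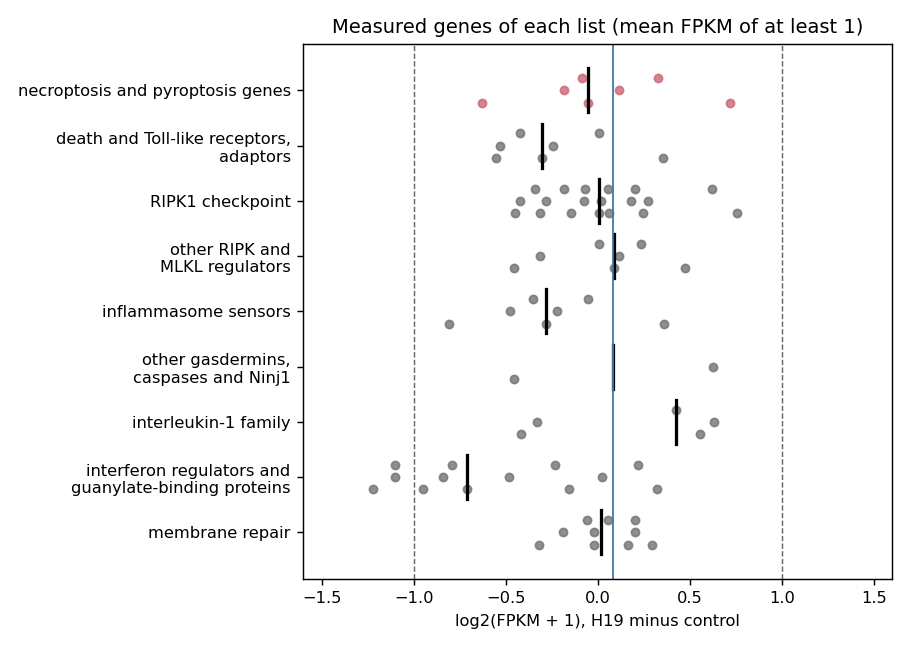
Log2(FPKM + 1) difference, H19 library minus control (horizontal), of each measured gene (points) of the necroptosis and pyroptosis genes (red) and of 8 related lists (grey), with the median of each list as a black bar. The blue line marks the median of all measured genes, 0.08, and the dashed lines 2-fold; points beyond 2-fold are those of the interferon list, whose median is -0.71.

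Casp1 and Il18 are also expressed by macrophages, so markers of those cells are given beside them. Of 10 macrophage and leukocyte markers 7 had a row, and their summed level was 130 FPKM in the control library and 64.4 FPKM in the H19 library, most of it Cd14, which hepatocytes also express. Without Cd14 this sum was 5.28 and 1.99 FPKM. Cd68 was at 2.75 and 0.928 FPKM, Lyz2 at 1.68 and 0.412 FPKM, Csf1r at 0.477 and 0.269 FPKM and Ptprc, the pan-leukocyte gene, at 0.237 and 0.380 FPKM. The authors' deposited table lists Cd68 and Lyz2 as lower, as it does Casp1, and none of the other markers of this list. Itgam and Laptm5 were listed at 0 in the H19 library, and Adgre1, Clec4f and Tyrobp had no row. The part of such cells in the Casp1 and Il18 values was not tested, and fewer cells of a type cannot be told apart from less RNA per cell in these bulk libraries.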

How the data were processed

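Per the file headers, the authors deposited FPKM, in a joint table and a table for each library; genes missing from a per-library table were taken as 0, and the tables were then identical. Tools and build named in the submitters' processing notes are CASAVA 1.4, TopHat2 and mm9; the program that computed FPKM is not given in the sources used here. Of the deposited gene identifiers 21017 are in GENCODE M21 (GRCm38) and the loci of 99.9% of these overlap there, so coordinates are on GRCm38. The authors' deposited table of differences gives p-values and q-values, per the file headers, and its log2 ratio has no pseudocount.

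The log2 difference used a pseudocount of 1 and a mean FPKM of at least 1; 2-fold and 1.5-fold were the thresholds, and the number of fragments limits the precision of low genes. The 2-fold rule was checked on simulated data, with larger changes placed in genes of a mean of at least 5 FPKM. Those changes lay well past 2-fold, and the noise was small and chosen, not taken from these libraries. Finding them was thus largely fixed in advance, and the check says nothing about the error of these 2 libraries. Changes in genes below that mean, among them Casp1 and Il18, and the 1.5-fold threshold were not covered by that check. All 10 genes were named, and of each related pathway list those past 2-fold or the 3 of largest difference. Casp8 ratios, Casp12, Nlrp10 and the other genes outside this rule were named after their values were seen. Among the marker lists, Serpina1a, a hepatocyte marker, was at 2.12 and 0.192 FPKM (-1.39). Of 8 stellate and endothelial markers 1 was measured, Des, at 3.43 and 0.893 FPKM (-1.23). Both were past 2-fold lower. Besides, 1 gene was left out of the gasdermin list and is not reported here. The members and lists were chosen with earlier results of these data known. Alternatives were other pseudocounts, filters, thresholds and scalings. Python 3.11.15 was used with pandas 2.3.3 and numpy 2.4.6.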

Additional observations from a re-analysis of the deposited data

How the results depend on the processing

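With 1 library per group no replicate could be left out. No paired analysis was possible because each group holds 1 library. The 54 recomputed differences of the 9 genes kept their direction. With smaller pseudocounts and the identical per-library tables this was fixed in advance, since neither can change a sign. Only the median of measured genes set to 0, equal upper quartiles and rescaling to TPM could have turned a direction. Casp8 came to 0.00259 with equal upper quartiles. The count of measured members at least 2-fold lower, 0 as reported, was 1 (Il18) with a pseudocount of 0.1 or 0.01, and 1 (Casp1) with no filter or, added after the data were seen, with at least 1 FPKM in either library. Under a limit of 5 on the mean FPKM the count past 1.5-fold was 1, since Il18 is then left out. The median of the members was -0.171 with equal upper quartiles.

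Medians near 0 turned with the scaling. That of the RIPK1 checkpoint was -0.0739 with the median set to 0, -0.105 with equal upper quartiles and -0.0565 as TPM, that of membrane repair -0.0607, -0.0947 and -0.0441, and that of the other RIPK and MLKL regulators -0.0280 with equal upper quartiles. Under that limit of 5 the inflammasome median was 0.0390, and the interleukin-1 family median -0.0254 with no filter; the cause was not tested. The gasdermin list, whose median of 0.0841 rests on 2 measured genes, was at -0.0203 with no filter, -0.0210 with equal upper quartiles and -0.236 with at least 1 FPKM in either library. By the depth estimate, Casp1, Il18 and Zbp1 rest on few fragments, so their ratios are the least precise.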
